A study of Mus musculus with 12 samples.

Results

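*Ccl20*, *Ccl28*, and *Cxcl17* are 3 chemokine genes known mainly from mucosal epithelium, and they were taken by name from the 43 immune genes of a NanoString panel. The panel also held 5 house-keeping genes, so that these are 3 of 48 genes measured. They were measured in 12 melanomas of the mouse cell line B16.F10, grown under the skin of C57BL/6 mice that were 6 to 8 weeks old at inoculation. At a volume of about 200 mm3, each tumor received 1 intratumoral injection of 100 µL. PBS, given to 4 tumors, served as the negative control. Free D-PDB, the polymer carrier without DNA, was given to 4 tumors as the vehicle control, and NanoISD, the same carrier loaded with double-stranded DNA that activates the cytosolic DNA sensor cGAS, was given to 4 tumors at a dose of 2 µg of DNA. All tumors were harvested 6 hours later, and the values are thus those of an early, single-dose response in a transplanted tumor of 1 cell line. The deposited values are log2 fold changes, already scaled by the authors to the house-keeping genes and relative to the PBS-treated tumors, so that a value of 1 means a doubling over PBS. They hold no count level, so that the genes cannot be ordered by abundance.

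Chemokines are small secreted proteins that direct the movement of leukocytes through receptors on the cell surface. *Ccl20* encodes the ligand of CCR6, a receptor of B cells, immature dendritic cells, and the T cells that make IL-17, and it is known to be induced in epithelium by inflammatory signals through NF-kB. *Ccl28* encodes a ligand of CCR10 and CCR3, is made by the epithelium of glands and mucosal surfaces, and draws cells that secrete IgA. *Cxcl17* encodes a chemokine of mucosal tissues that attracts myeloid cells. None of the 48 genes measured is a keratin or another defining gene of epithelium, and none is a defining gene of melanocytes, so that neither the epithelial source of these transcripts nor the tumor identity could be checked against markers. In RNA from whole tumors, fewer cells of a type and less RNA per cell cannot be told apart.

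The sequences upstream of *Ccl20* and *Ccl28* are shown. *Ccl20* was taken because it is known to be induced through NF-kB in epithelium, and *Ccl28* because it has no shared lowest value. Both sequences are the 250 bases before the annotated start of the gene, on the plus strand. They come from RefSeq on GRCm38.p6, which held such a window for 2 of the 3 genes. Capitals mark the match to an NF-kB-type motif (GGGA, any 4 bases, and CC), searched on both strands.
*Ccl20*, chr1:83116516-83116765: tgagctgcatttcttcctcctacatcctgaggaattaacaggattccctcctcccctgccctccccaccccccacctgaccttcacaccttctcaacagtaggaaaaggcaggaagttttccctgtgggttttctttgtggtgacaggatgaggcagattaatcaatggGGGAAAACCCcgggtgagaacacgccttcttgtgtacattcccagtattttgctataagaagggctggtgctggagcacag
*Ccl28*, chr13:119623569-119623818: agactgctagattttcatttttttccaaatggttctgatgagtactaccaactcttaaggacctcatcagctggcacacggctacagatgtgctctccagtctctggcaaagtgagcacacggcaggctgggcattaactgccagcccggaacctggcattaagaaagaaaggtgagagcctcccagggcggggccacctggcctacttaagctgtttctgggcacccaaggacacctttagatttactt
*Ccl20* holds 1 match, which begins 81 bases and ends 72 bases before the start, and *Ccl28* holds 0. Of all 32851 upstream windows of this length, 17.6% hold a match, as do 14 of the 32 panel genes that have a window. An interferon-response-type motif (GAAA, any 2 bases, and GAAA), searched in the same way, was in neither window and is in 2.98% of all windows. These are matches of letters only, no binding was measured, and their part in the values of *Ccl20* was not tested.

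*Ccl20* was above its lowest value in 4 of 12 tumors, of which 3 had received NanoISD, 1 had received D-PDB, and 0 had received PBS. All 4 PBS-treated tumors were listed at 0. The D-PDB-treated tumors 1, 2, and 3 were also at 0, and D-PDB tumor 4 was at 0.53. The NanoISD-treated tumors were at 1.15, 0.42, 1.12, and 0 in tumors 1 to 4. The groups overlapped, since NanoISD tumor 4 sat at the same value as every PBS-treated tumor. Relative to the shared lowest value, the 4 tumors above it were 2.22-fold higher in NanoISD tumor 1, 2.17-fold in NanoISD tumor 3, 1.44-fold in D-PDB tumor 4, and 1.34-fold in NanoISD tumor 2.

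**Figure D1:**
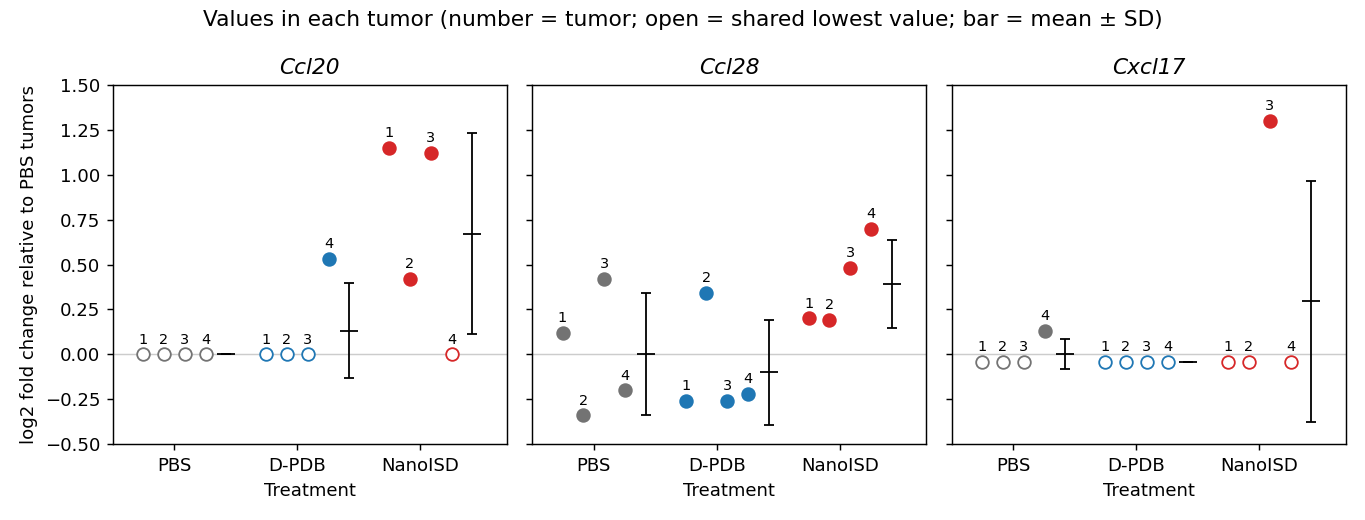
Deposited log2 fold change relative to the PBS-treated tumors (vertical axis) of *Ccl20*, *Ccl28*, and *Cxcl17* in each of the 12 tumors, by treatment (horizontal axis). Each point is a tumor with its number, open points share the gene's lowest value, and bars give the mean and SD of 4 tumors. *Ccl20* leaves its lowest value in 3 NanoISD-treated tumors and 1 D-PDB-treated tumor, *Cxcl17* in 1 NanoISD-treated and 1 PBS-treated tumor, and *Ccl28* varies in every group.

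*Ccl20* averaged 0.67 ± 0.56 (SD, n = 4) in the NanoISD-treated and 0.13 ± 0.27 (SD, n = 4) in the D-PDB-treated tumors, and the PBS-treated tumors had no spread. NanoISD exceeded PBS by 0.67 on the log2 scale, or 1.59-fold (95% interval 0.972- to 2.61-fold), and the difference did not pass the threshold of 0.05 (standard error 0.33, adjusted p = 0.0997 in limma over the 43 genes). A two-sided exact permutation test of the same difference gave p = 0.143 (adjusted p = 0.186), where 4 tumors against 4 allow no p below 0.0286. Against D-PDB, NanoISD was higher by 0.54 (95% interval -0.17 to 1.25, adjusted p = 0.201 in limma). D-PDB differed from PBS by 0.13 (95% interval -0.58 to 0.85, adjusted p = 0.866 in limma), and this difference was that of D-PDB tumor 4 alone. Without NanoISD tumor 4, the one NanoISD-treated tumor at the lowest value, the difference from PBS was 0.90 and passed (adjusted p = 0.0378 in limma, between 0.0378 and 0.266 over all alternatives). With array weights the difference from PBS was 0.37 and that from D-PDB 0.28, and the latter ranged from 0.38 to 0.76 with single tumors left out. If the shared lowest value is a limit of detection, which is not known, the tumors at 0 give only an upper limit. Both sides of each comparison hold such tumors, so that the true differences of *Ccl20* could then be larger or smaller.

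*Cxcl17* was at its lowest value in 10 of 12 tumors. The PBS-treated tumors 1, 2, and 3, all 4 D-PDB-treated tumors, and the NanoISD-treated tumors 1, 2, and 4 shared the value -0.04. The other two tumors were PBS tumor 4, at 0.13, and NanoISD tumor 3, at 1.30. NanoISD tumor 3 was thus 2.53-fold above the shared lowest value, and no other treated tumor left it. The group means were 0.00 ± 0.09 (SD, n = 4) after PBS, -0.04 with no spread after D-PDB, and 0.30 ± 0.67 (SD, n = 4) after NanoISD. The difference of 0.29 between NanoISD and PBS (95% interval -0.45 to 1.03, adjusted p = 0.470 in limma) was carried by this 1 tumor, and was -0.04 without it. Against D-PDB the difference was 0.34 (95% interval -0.40 to 1.07, adjusted p = 0.413 in limma), and 0 without NanoISD tumor 3. D-PDB and PBS differed by -0.04 (95% interval -0.78 to 0.70, adjusted p = 0.944 in limma), and by 0 without PBS tumor 4.

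*Ccl28* differed from 0 in every tumor, and its lowest value, -0.34, was found in PBS tumor 2 alone. The PBS-treated tumors were at 0.12, -0.34, 0.42, and -0.20 in tumors 1 to 4. The D-PDB-treated tumors were at -0.26, 0.34, -0.26, and -0.22. The NanoISD-treated tumors were at 0.20, 0.19, 0.48, and 0.70. All 4 NanoISD-treated tumors were above 0, whereas the PBS-treated tumors lay on both sides of it, and PBS tumor 3 was higher than NanoISD tumors 1 and 2. The order of the means was 0.39 ± 0.25 after NanoISD, 0.00 ± 0.34 after PBS, and -0.10 ± 0.29 after D-PDB (SD, n = 4 each).

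No neighbors in this order differed beyond their spread. NanoISD exceeded PBS by 0.39, or 1.31-fold (95% interval 0.827- to 2.08-fold, adjusted p = 0.294 in limma; two-sided exact permutation test, p = 0.114, adjusted p = 0.159). It exceeded D-PDB by 0.49, or 1.41-fold (95% interval 0.887- to 2.23-fold, adjusted p = 0.206 in limma; two-sided exact permutation test, p = 0.0857, adjusted p = 0.205). D-PDB was lower than PBS by a difference of -0.10 (95% interval -0.77 to 0.57, adjusted p = 0.873 in limma), and the sign turned without PBS tumor 3, where the difference was 0.04. The intervals leave room for a doubling of *Ccl28* after NanoISD as well as for no change.

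Thus 0 of the 3 genes passed in NanoISD against PBS, where 51.2% of the 43 panel genes were called, all of them higher. Against D-PDB, 0 of the 3 passed, where 25.6% of the panel was called, although that count ranged from 5 to 20 genes with single tumors left out. In D-PDB against PBS, 0 of the 3 passed, as did 0% of the panel. At an unadjusted p of 0.05, 0 of the 3 passed in limma in any comparison, beside 58.1% of the panel for NanoISD against PBS, 46.5% for NanoISD against D-PDB, and 2.33% for D-PDB against PBS. In the exact permutation test 0 of the 3 passed as well, beside 41.9%, 18.6%, and 2.33%. In 0 of the 3 genes did all NanoISD-treated tumors lie above all PBS-treated tumors, which 41.9% of the panel did, or above all D-PDB-treated tumors, which 18.6% did. The direction was the same in all 3 genes for NanoISD, which had the higher mean against both controls, and the same direction was found in 39 of the 43 panel genes against PBS and in 42 against D-PDB. The 2 comparisons share the NanoISD-treated tumors. The median difference of the 3 genes from PBS was 0.39, and that of all 43 genes was 1.20. Against D-PDB the medians were 0.49 and 1.01, and between D-PDB and PBS they were -0.04 and 0.25.

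**Figure D2:**
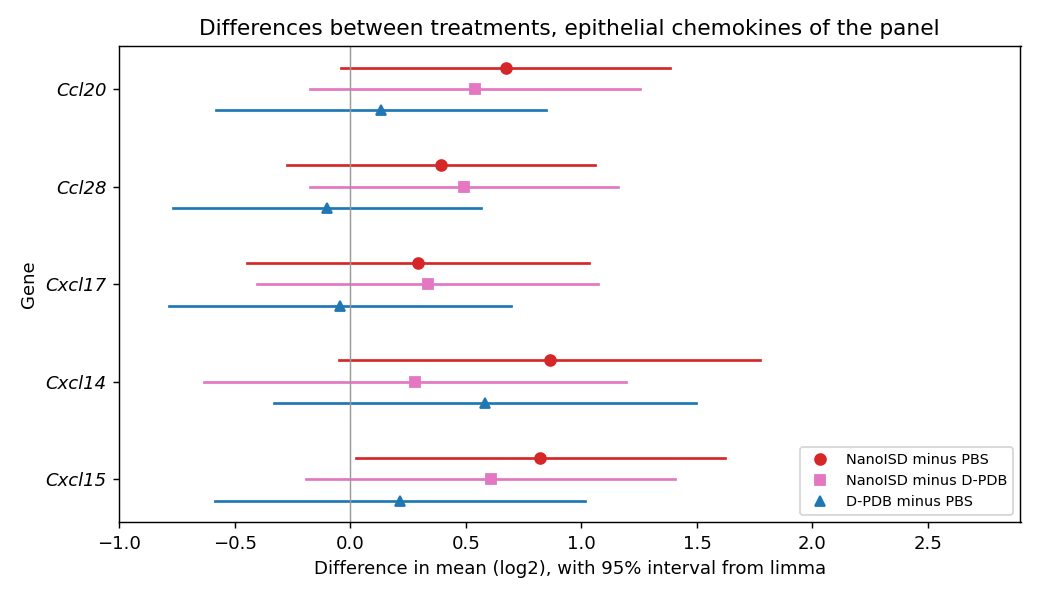
Difference in mean log2 value between treatments (horizontal axis) for *Ccl20*, *Ccl28*, *Cxcl17*, and the other epithelial chemokines of the panel, *Cxcl14* and *Cxcl15* (vertical axis). Points are differences and lines their 95% intervals from limma, with the comparison given by color and symbol; every interval of the first 3 genes includes 0.

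The 3 genes were among those of the panel that moved least. Over the 12 tumors, the distance from the lowest to the highest value was 1.04 for *Ccl28*, the smallest of the 43 genes, 1.15 for *Ccl20*, rank 2 from the smallest, and 1.34 for *Cxcl17*, rank 4. The median of this distance over the panel was 3.39. The SD within treatments was 0.30 for *Ccl28*, 0.36 for *Ccl20*, and 0.39 for *Cxcl17*, with a median of 0.74 over the panel. Ordered by the signed difference between NanoISD and PBS, *Ccl20* had rank 32, *Ccl28* rank 35, and *Cxcl17* rank 37 of 43 from the highest. For *Ccl20* and *Cxcl17*, the small spread includes 8 and 10 tumors that share a lowest value.

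**Figure D3:**
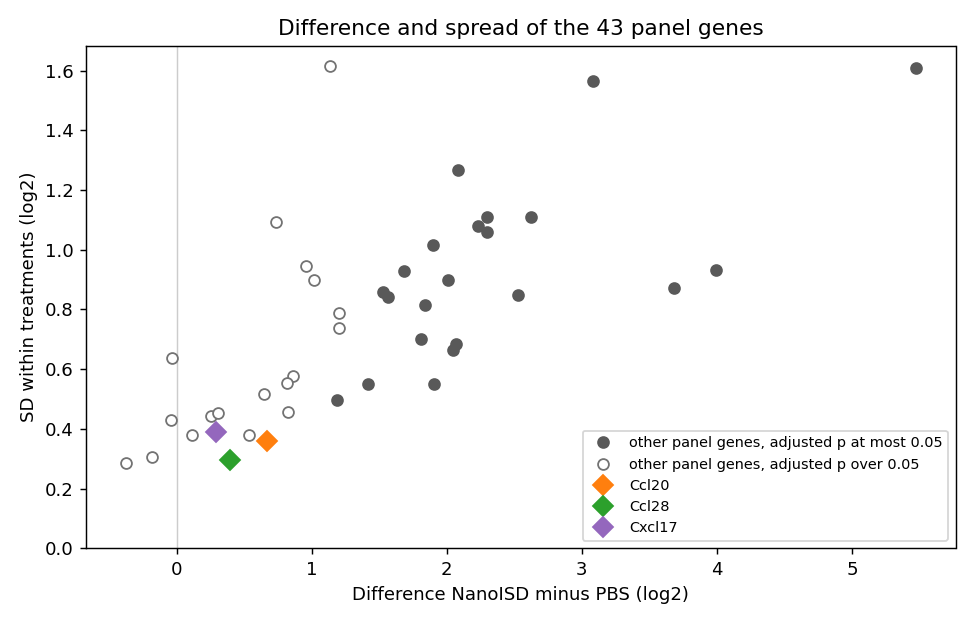
Difference between NanoISD- and PBS-treated tumors (horizontal axis, log2) and SD within treatments (vertical axis, log2) for the 43 panel genes. Each point is a gene, filled where its adjusted p in limma was at most 0.05; *Ccl20*, *Ccl28*, and *Cxcl17*, drawn as diamonds, lie at the lower left with differences of 0.67, 0.39, and 0.29.

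A lowest value shared by 5 or more tumors was found in 3 of the 43 genes (6.98%). Besides *Ccl20* and *Cxcl17*, this was *Csf3*, which encodes the granulocyte colony-stimulating factor, at -0.07 in 5 tumors. All 5 were also at the lowest value of *Ccl20* (100% of the *Csf3* tumors and 62.5% of the *Ccl20* tumors), and the 4 tumors with *Ccl20* above its lowest value all had *Csf3* above its own. *Ccl20* and *Cxcl17* were at their lowest value together in 7 tumors (87.5% of the *Ccl20* tumors and 70% of the *Cxcl17* tumors). NanoISD tumor 3 was the 1 tumor in which *Ccl20* and *Cxcl17* were both raised above it. Each shared value is the same to 2 decimals. The background threshold used by the authors is not given in the sources used here, and its part in the shared values was not tested.

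The tumors in which *Ccl20* left its lowest value were among those with the highest overall response. Of the 5 tumors with the highest mean over the other 40 panel genes, 4 were above the lowest value of *Ccl20*, and 0 of the 7 remaining tumors were. These means were 2.60 in NanoISD tumor 1, 1.70 in NanoISD tumor 3, 1.21 in NanoISD tumor 4, 0.92 in D-PDB tumor 4, and 0.61 in NanoISD tumor 2. The cut at 5 tumors is arbitrary. All NanoISD-treated tumors are among the 5, so that the split largely follows the treatment. NanoISD tumor 4 was the exception, with the third highest mean and *Ccl20* at 0, and the same tumor had the highest *Ccl28* of the study, at 0.70. *Cxcl17* was above its lowest value in 1 of these 5 tumors and in 1 of the remaining 7. NanoISD tumor 3, the single treated tumor with *Cxcl17* above it, had the highest value of the 12 tumors in 10 of the other 40 genes, whereas NanoISD tumor 1, with the highest value in 27 of them, had *Cxcl17* at -0.04.

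**Figure D4:**
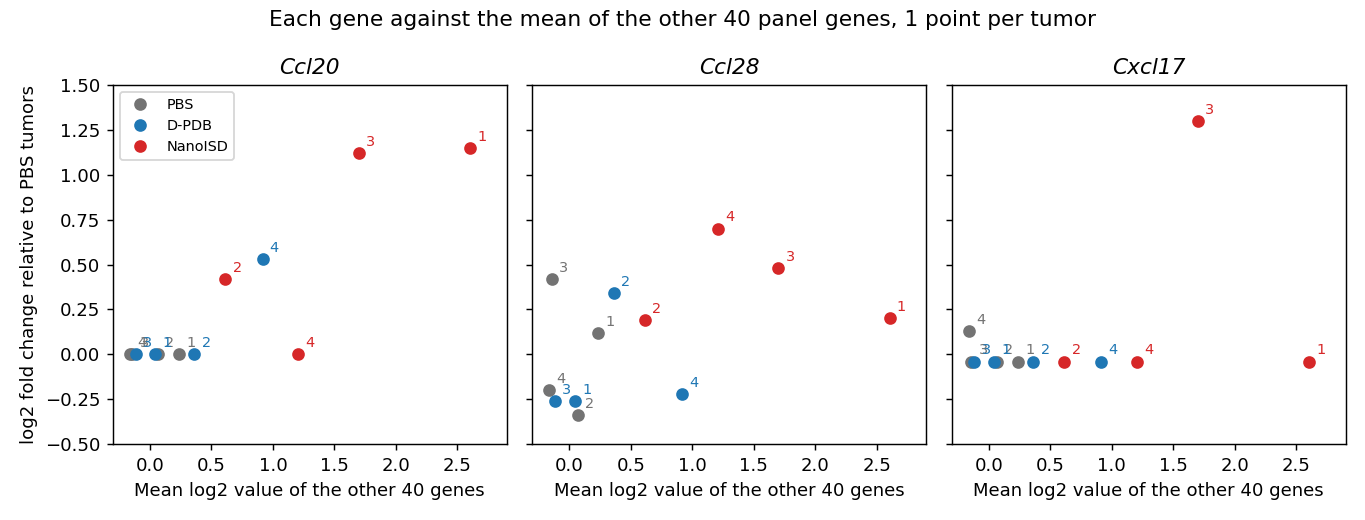
Log2 fold change of *Ccl20*, *Ccl28*, and *Cxcl17* (vertical axis) against the mean log2 value of the other 40 panel genes (horizontal axis) in each tumor, with color for the treatment and the tumor's number beside each point. NanoISD tumor 4 has *Ccl20* at 0 at a panel mean of 1.21, and *Cxcl17* stands apart in NanoISD tumor 3.

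The panel held another pair of chemokines known from epithelium. *Cxcl14* is made by skin and other epithelia, and *Cxcl15* by the epithelium of the lung. *Cxcl14* was at 1.66, 0.02, 0.80, and 0.97 in NanoISD tumors 1 to 4, and between -0.36 and 0.22 after PBS. *Cxcl15* was at 0.94, 0.21, 1.33, and 0.81 in NanoISD tumors 1 to 4, and between -0.35 and 0.15 after PBS. All NanoISD-treated tumors were thus above all PBS-treated tumors for *Cxcl15*, which held for 41.9% of the panel, whereas NanoISD tumor 2 overlapped with PBS for *Cxcl14*. In limma 0 of these 2 genes passed against PBS, where 51.2% of the panel was called. The differences were 0.86 for *Cxcl14* (adjusted p = 0.0997 in limma) and 0.82 for *Cxcl15* (adjusted p = 0.0765 in limma). Against D-PDB, 0 of 2 passed, where 25.6% of the panel was called, with differences of 0.28 and 0.61. The difference of *Cxcl14* from D-PDB was 0.01 without NanoISD tumor 1 and 0.61 without D-PDB tumor 4. Both passed against PBS without NanoISD tumor 2 (adjusted p = 0.0278 in limma for each, in a range up to 0.265 for *Cxcl14* and 0.184 for *Cxcl15* over all alternatives), and *Cxcl15* also passed with array weights (adjusted p = 0.0435 in limma).

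*Ccl20* is known to be induced by NF-kB and IL-17 signaling together with *Cxcl1*, *Cxcl2*, *Cxcl3*, *Cxcl5*, *Csf2*, *Csf3*, *Il6*, and *Tnf* (listed as *Tnfa*). Of these 8 genes, 5 rose in NanoISD against PBS in limma, 0 fell, and 3 did not pass, beside 51.2% of the panel called in this comparison, and their median difference was 2.10, beside 1.20 for all 43 genes. The 5 were *Cxcl1*, *Cxcl2*, *Cxcl5*, *Csf3*, and *Il6*. Against D-PDB, 4 of the 8 rose (*Cxcl1*, *Csf3*, *Il6*, and *Tnf*), beside 25.6% of the panel, with a median difference of 1.71 beside 1.01. This second count was 1, with *Il6* left, without D-PDB tumor 1, 2, or 3, it was 2 without NanoISD tumor 1 or 3 or PBS tumor 2, 3, or 4, and 6 without D-PDB tumor 4, whereas the count against PBS was 5 or 6 whichever tumor was left out. Between D-PDB and PBS, 0 of the 8 passed. *Tnf* averaged -0.48 after D-PDB and 0.535 after NanoISD, so that part of its difference from D-PDB lay in low values after D-PDB. Its difference between NanoISD and PBS did not pass (0.535, adjusted p = 0.188 in limma). The mean of the 8 genes per tumor ranged from 1.49 to 3.70 after NanoISD, from -0.05 to 1.53 after D-PDB, and from -0.44 to 0.77 after PBS. In D-PDB tumor 4, the one D-PDB-treated tumor with *Ccl20* above its lowest value, this mean was the highest of its group. The same tumor also had the highest mean of its group over the other 40 panel genes, at 0.92. In NanoISD tumor 4, where *Ccl20* was at 0, the mean of the list was 1.49, the lowest of its group. NanoISD tumor 2, with *Ccl20* at 0.42, was close to it, at 1.585. *Csf3*, *Il6*, and *Tnf* were higher in NanoISD tumor 4 than in NanoISD tumor 2, and the other genes of the list were lower.

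The genes closest to each of the 3 by the mean absolute difference in log2 value over the 12 tumors were *Cxcl17* (0.234) and *Kitl* (0.263) for *Ccl20*, *Cxcl15* (0.315) and *Tgfb1* (0.334) for *Ccl28*, and *Ccl20* (0.234) and *Ifnb1* (0.298) for *Cxcl17*. The median of this measure over the 42 other genes was 0.575, 0.732, and 0.705, respectively. The likeness of *Ccl20* and *Cxcl17* comes from 7 tumors in which both stood at their lowest value.

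Genes of other cell types in the tumor were followed beside these results. Of 5 genes of lymphocytes and NK cells (*Fasl*, *Xcl1*, *Lta*, *Il2*, and *Il3*), 1 rose in NanoISD against PBS in limma, namely *Fasl* by 1.19 (adjusted p = 0.0224), where 51.2% of the panel was called. The other 4 did not pass, with differences of 0.31 for *Xcl1*, 0.12 for *Lta*, -0.18 for *Il2*, and -0.375 for *Il3*. The median difference of the 5 was 0.12, beside 1.20 for all 43 genes. The mean of these 5 genes per tumor ranged from -0.06 to 0.62 after NanoISD, from -0.57 to 0.05 after D-PDB, and from -0.23 to 0.16 after PBS. Of the platelet genes *Pf4* and *Ppbp*, 0 of 2 passed in the same comparison, and their mean ranged from -0.27 to 2.05, from -0.60 to 0.84, and from -0.33 to 0.28 in the same order. NanoISD tumor 1, with the highest *Ccl20*, had the highest mean of both lists. The same tumor also had the highest mean over the other 40 panel genes, at 2.60, and the highest value in 27 of them. Its lead was thus not particular to the lymphocyte, NK cell, and platelet genes. The part of these cells in the values of *Ccl20* was not tested.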

How the data were processed

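NanoString nCounter counts of fluorescent barcodes were obtained from 100 ng of RNA per tumor in 12 tumors, 4 per treatment, grouped and numbered by their labels. The authors processed the counts in nSolver, whose version is not given in the sources used here, and deposited log2 fold changes for 48 genes, scaled to 5 house-keeping genes and relative to the PBS-treated tumors. In the deposited log2 values, each gene averaged 0 over the PBS-treated tumors within 0.0025, and the house-keeping genes averaged 0 in each tumor within 0.002. Both averages follow from the scaling and do not measure how steady the house-keeping genes were. Single house-keeping genes lay between -0.51, in NanoISD tumor 4, and 0.28, in NanoISD tumor 1. The depth behind the values is unknown, and the number of tumors limits the precision. The labels call the tumors biological replicates but do not assign each to a mouse, and p-values measure the spread between these tumors.

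The values were used without filter or pseudocount. limma 3.58.1 in R 4.3.3 was fitted with lmFit and eBayes to the 43 panel genes in all 12 tumors, the 3 treatments in 1 fit, with Benjamini-Hochberg adjustment over the 43 genes and a threshold of 0.05. Two-sided exact permutation tests used all 70 splits of 8 tumors, adjusted over the same genes. The fit and the permutation test were tested on simulated data. A lowest value was called shared where tumors had the same value to 2 decimals. The genes named are the 3 chemokines, the lists of other epithelial chemokines, of genes induced with *Ccl20*, and of lymphocyte and platelet genes, the 2 panel genes closest to each of the 3, and other genes with a lowest value shared by 5 or more tumors. The 3 genes and all lists were chosen with earlier results of these data known. Gene names were matched to RefSeq, 47 by symbol and 1 by synonym. Tables and plots were made with pandas 2.3.3 and matplotlib 3.10.9 in Python 3.11.15, and the permutation test was checked against scipy 1.17.1.

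The alternatives were each house-keeping gene left out of the scale, each tumor left out, array weights, robust eBayes, a block for the replicate number, a fit of the 2 compared groups alone, values without log, genes at a shared lowest value left out, and the exact permutation test. A fit with no spread shared between genes was added after seeing the data. No batch is named in the labels.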

Additional observations from a re-analysis of the deposited data

Results flagged for a closer look

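In 4 groups of 4 tumors, a single tumor lay far from the other tumors of its treatment, judged by its gap to the nearest tumor as a share of the range of the group. *Ccl20* in D-PDB tumor 4 was at 0.53, with the other D-PDB-treated tumors at 0. *Cxcl17* in NanoISD tumor 3 was at 1.30 and in PBS tumor 4 at 0.13, with the other tumors of each group at -0.04. In these 3 groups the others share the lowest value, so that any single tumor above it has a gap of 1 of the range. *Ccl28* in D-PDB tumor 2 was at 0.34, and its gap to the other D-PDB-treated tumors, which lay from -0.26 to -0.22, was 0.933 of the range. The search covered 13 groups of *Ccl20*, *Ccl28*, *Cxcl17*, *Cxcl14*, and *Cxcl15*, of which chance at 5% would pass 0.65, and 2 further groups had no range. In the 3 groups with a shared lowest value the gap of 1 was fixed by the ties. The chance share therefore does not apply to them.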

How the results depend on the processing

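The differences of *Ccl20*, *Ccl28*, and *Cxcl17* kept their side of the threshold under every alternative, except that *Ccl20* passed in NanoISD against PBS without NanoISD tumor 4 (0.90). The differences of NanoISD from PBS also varied with the house-keeping gene left out of the scale. They were lowest without *Gapdh*, at 0.59, 0.31, and 0.21 in the same gene order. Without *Rpl19* they were highest, at 0.72, 0.44, and 0.34. With single tumors left out, the difference of NanoISD from PBS ranged from 0.51 to 0.90 for *Ccl20* (0.37 with array weights), from 0.28 to 0.53 for *Ccl28*, and from -0.0425 to 0.40 for *Cxcl17*, the lowest without NanoISD tumor 3. Against D-PDB, *Cxcl17* ranged from 0 without that tumor to 0.45. Between D-PDB and PBS, *Ccl20* ranged from 0 without D-PDB tumor 4 to 0.18, *Cxcl17* from -0.057 to 0 without PBS tumor 4, and *Ccl28* from -0.25 to 0.04 without PBS tumor 3, and the last was 0.0019 with array weights. The cause was not tested. With no spread shared between genes, *Ccl20* in NanoISD against PBS had an adjusted p of 0.0588 in a linear model over 12 tumors. *Ccl20* and *Cxcl17* have no value with the genes at a shared lowest value left out.

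The panel count of NanoISD against PBS, 22, was 0 with values without log and 0 in the exact permutation test, where 18 genes had an unadjusted p of 0.05 or less, and ranged from 16 to 26 with single tumors left out. The count against D-PDB, 11, was 2 with only the 2 compared groups, 0 with values without log, and 0 in the exact permutation test (8 unadjusted). With 1 tumor left out it ranged from 5 to 20, at 5 for D-PDB tumor 1 or 3, 7 for D-PDB tumor 2, 17 for D-PDB tumor 4, and 20 for NanoISD tumor 2. The count of D-PDB against PBS was 0 throughout in limma and in the exact permutation test, with 1 gene at an unadjusted p of 0.05 in each. Of 12 pairs of tumors with the same number, 3 had deviations from their group means that correlated over 0.1, so that the numbers were not taken to pair the tumors. With the replicate number as a block, the counts were 21, 8, and 0, and *Ccl20* in NanoISD against PBS kept its difference of 0.67 (adjusted p = 0.151 in limma). The depth of the counts is unknown, and whether the shared lowest values of *Ccl20* and *Cxcl17* are a limit of detection is not known.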
